A study of Homo sapiens with 13 samples.

Results

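The treated libraries of 2 small cell lung cancer (SCLC) lines, H82 and H146, were compared to ask which differences between the lines remained, and which appeared, under the SMARCA4/SMARCA2 inhibitor FHD-286. The comparison took 7 of the 13 RNA libraries of the series: 3 of treated H82 and 4 of treated H146. Its members were the 19612 of 56831 annotated genes that reached at least 1 TPM (reads of a gene divided by its length and scaled so that each library has the same sum) in at least 3 of these 7 libraries. Genes entered by level in the pooled libraries, and a gene could enter through 1 line alone. That took all 3 libraries of treated H82 or 3 of the 4 of treated H146. A gene that entered in this way is likely to be called, so counts of calls depend in part on the filter. Both lines are established human cell lines, labelled wild type, grown in the same medium. H82 belongs to the SCLC-N subtype and H146 to SCLC-A, and each subtype is represented here by 1 line, so line and subtype cannot be told apart. The treated groups received 100 nM FHD-286 for 14 days with regular renewal. The 3 untreated libraries of each line received no drug, and no vehicle is named in the labels.

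SCLC is a high-grade tumour in which most cases show a neuroendocrine (NE) programme: dense-core granules, synaptic vesicle proteins and peptide hormones, under lineage transcription factors such as *INSM1* and *NEUROD1*. SCLC-N takes its name from *NEUROD1*, and lines of this subtype often express *OTX2*, *MYC* and genes of photoreceptors, whereas SCLC-A lines are more epithelial. SMARCA4 and SMARCA2 are the alternative ATPases of the SWI/SNF (BAF) chromatin remodelling complexes, and FHD-286 blocks the activity of both without removing either protein.

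*NEUROD1*, the marker of SCLC-N, was at 48, 91.1 and 112 TPM in treated H82 libraries 1, 2 and 3 and at 0.129 to 0.514 TPM in treated H146. Pan-NE markers were present in both lines: *SYP* (synaptophysin) was at 31.5, 58.1 and 50.7 against 62.7 to 85.9 TPM and *NCAM1* at 52.5, 69 and 71.1 against 43.6 to 68.9 TPM. Treated H82 libraries held 15554 to 16633 genes at 1 TPM or more and those of treated H146 18778 to 19309, and mitochondrial genes took 12.3% to 14.9% and 3.82% to 11.4% of the TPM. TPM keeps no record of sequencing depth, so the precision behind each value is known only from the spread between libraries. The values of the lines come from 2 tables deposited separately, and levels set across them assume the same gene lengths, which a comparison of length ratios between the tables did not contradict.

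All 3 treated H82 libraries held low levels of transcripts typical of H146, and library 2 held the most. Of 123 genes at 10 TPM or more in every H146 library and under 0.1 TPM in every untreated H82 library, 16, 52 and 10 reached 1 TPM in treated H82 libraries 1, 2 and 3, with medians of 0.503%, 2.22% and 0.189% of the treated H146 mean. In library 2, *KRT19* was at 50.2 TPM against 1.43 and 1.15 in the other treated H82 libraries, and *UBB* at 75.8 TPM against 4.42 and 3.23. The 123 genes were chosen by their level in H146, so they cannot show transcripts of other kinds. *MYCN*, at most 4.83 TPM in any H146 library, was also highest in library 2, at 61.8 TPM against 1.97 and 1.27. Library 1 differed in another way, since the summed level of 17 stress response genes was 4755 TPM there against 1570 and 1212 TPM in libraries 2 and 3. What caused either pattern was not tested. Where leaving out 1 library ended the call of a named gene, turned its direction or moved a called value over 1.5 times, the value without it is given. The treated H146 libraries also fell into 2 sets by mitochondrial ribosomal RNA, at 17770 and 30550 TPM in libraries 1 and 2 and 2572 and 1710.0 TPM in libraries 3 and 4, and among treated H82 libraries it was at 32400.0, 13250.0 and 11580.0 TPM. Genes described below by library followed the split in both directions. For example, *P2RX2*, *SCG2*, *MIAT*, *GHRH*, *NMU* and *KIF5C* were higher in treated H146 libraries 1 and 2 than in 3 and 4, and *CDH2*, *MXD4* and *SOX1* were lower. Whether this split has a part in the line differences was not tested.

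With treatment, 12103 of the 19612 genes (61.7%) differed between the lines at an adjusted p under 0.05 (limma on log2(TPM + 1), two-sided, adjusted over all genes tested). Of these, 2941 (15% of genes tested) were higher in H82 and 9162 (46.7%) in H146. Groups did not overlap at all for 11478 of the called genes (58.5% of genes tested). These counts include genes that reached the filter through 1 line alone, for which a call and no overlap are likely. Differences are given throughout as H82 minus H146 on the log2(TPM + 1) scale with the standard error (n = 3 and 4), which understates fold differences of genes near 1 TPM. The labels do not say that the libraries came from separate cultures, so the p-values measure only the spread between these libraries. Over all tested genes the median difference was -0.61, with a median size of 0.935.

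The share of calls in each direction depended on how libraries were scaled to each other. Scaling by the median of ratios moved the median of all genes to -0.10 and gave 5315 of 19364 genes higher in H82 and 6049 higher in H146. Quantile normalization moved it to 0.01, with 5500 and 5231 of 19612. Taking out the mitochondrial genes gave 3351 and 8751. Of the genes called with TPM as deposited, 74.3% were also called under the median of ratios and 67.2% under quantile normalization. Without the mitochondrial genes the share was 95.5%. No gene called both with TPM as deposited and under any of these settings changed direction. This check could hardly have failed, since a gene moved across 0 by scaling would tend to lose its call. The direction of single genes is reported from TPM as deposited. Counts for gene groups from it are read against the 15% and 46.7% above. Group counts under another scaling are read against the counts of all genes under that scaling.

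The distance between the lines was smaller between treated than between untreated libraries. The median absolute difference over 24374 genes was 0.844 between treated libraries of the 2 lines (0.772 to 0.895 over 12 pairs), against 1.15 between untreated libraries (1.10 to 1.21 over 9 pairs). Within a line, treated libraries differed by 0.162 to 0.409 (H82) and 0.120 to 0.414 (H146). The distance was 0.824 between treated H82 and untreated H146 (0.776 to 0.851 over 9 pairs), and 1.02 between untreated H82 and treated H146 (1.005 to 1.09 over 12 pairs). Pearson's r over the same genes was 0.779 to 0.844 between treated pairs and 0.639 to 0.672 between untreated pairs. Pairs share libraries and genes are not independent, so these values describe the libraries and carry no test.

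**Figure D1:**
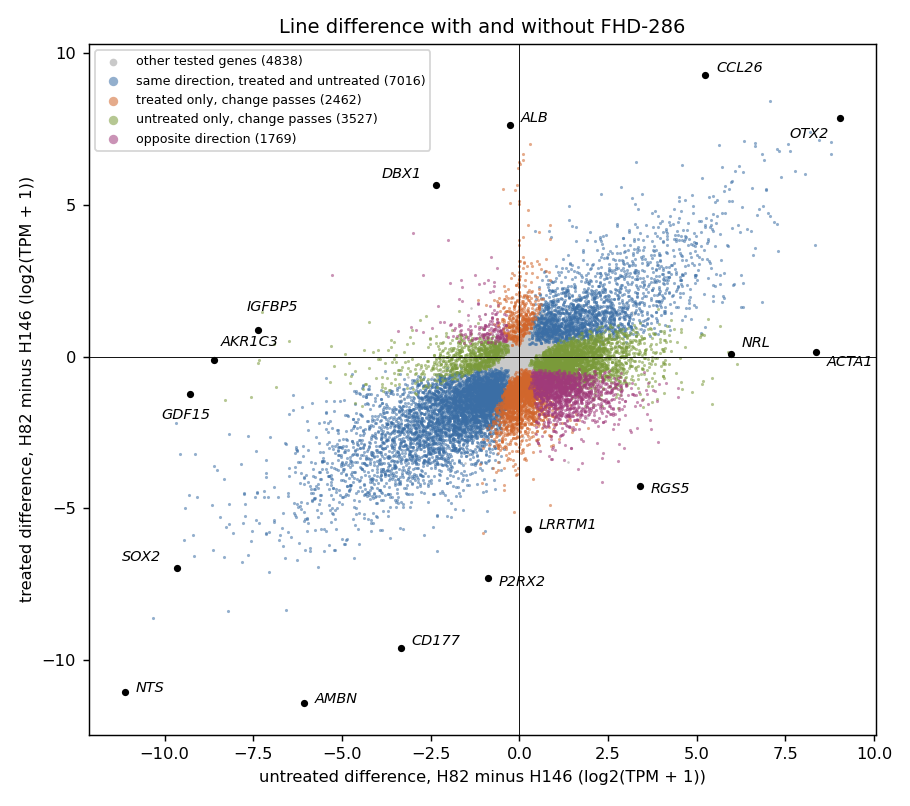
Treated line difference of each of the 19612 genes (y axis) against its untreated line difference (x axis), both as H82 minus H146 in log2(TPM + 1), with 1 point per gene coloured by class and some named genes marked in black. The 7016 kept differences lie along the diagonal, the 3527 lost ones along the horizontal zero line, the 2462 that appeared along the vertical zero line, and most of the 1769 opposite ones at the lower right.

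In a fit of all 13 libraries, 13434 of the same genes (68.5%) differed between the untreated lines, 6935 (35.4%) higher in H82 and 6499 (33.1%) in H146. This split was 5977 and 7507 under the median of ratios, 6390 and 7253 under quantile normalization and 8110 and 5749 without mitochondrial genes. The treated calls came from a fit of 7 libraries, so treated and untreated counts rest on tests of unlike power. In a fit of all 13 libraries the treated difference passed for 13395 genes, 3419 higher in H82 and 9976 in H146. The line difference itself changed with treatment for 11007 genes (56.1%), tested by an interaction term in the same fit of all 13 libraries: for 2778 (14.2%) towards H82 and for 8229 (42%) towards H146. Under the median of ratios this split was 5686 and 4743. A difference was counted as kept where both tests passed in the same direction, as appeared or lost where only the treated or only the untreated test passed and the interaction passed too, and as opposite where both passed with different signs. By this count, 7016 differences were kept (2078 higher in H82, 4938 in H146), 2462 appeared (470 and 1992), 3527 were lost (2659 formerly higher in H82, 868 in H146) and 1769 were opposite, with 1592 now higher in H146. Another 856 genes passed only with drug and 1122 only without it, with no call on the change, and 2860 passed in neither. Appeared and lost differences are thus not counted with equal power. Only genes that passed the level filter in treated libraries were classed. Genes that fell below it with drug, such as *CRX*, are not counted as lost. Untreated H82 libraries held 21227 to 21772 genes at 1 TPM or more, and treated ones 15554 to 16633.

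The directions within these classes moved with scaling, while their totals did so less. Under the median of ratios, 7087 differences were kept (2955 higher in H82, 4132 in H146), 2122 appeared (1203 higher in H82, 919 in H146), 3489 were lost (1781 formerly higher in H82, 1708 in H146) and 1388 were opposite (821 now higher in H82, 567 in H146). Without treated H82 library 2, 6582 were kept, 2086 appeared, 3884 were lost and 1391 were opposite.

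The 10 largest differences in favour of H82 included a chemokine, tumour antigens, a retinal transcription factor and metabolic enzymes. *CCL26* (chr7:75769533-75789896, coordinates throughout from hg38 and GENCODE release 44), a chemokine that attracts eosinophils, was at 391, 773 and 782 TPM in treated H82 and was listed at 0 in all 4 treated H146 libraries (difference 9.28 ± 0.26, adjusted p = 2.55e-07). *OTX2* (chr14:56799905-56816693), a homeobox factor of retina and forebrain, was at 586, 733 and 856 TPM against 2.01, 1.27, 3.93 and 1.68 TPM (difference 7.86 ± 0.28, adjusted p = 5.99e-07). *LDHB* (chr12:21635342-21757857), the lactate dehydrogenase subunit B, was at 1058, 1675 and 1732 TPM against 7.11, 6.71, 9.28 and 7.25 TPM (difference 7.41 ± 0.21, adjusted p = 2.74e-07). No library of one line came near the range of the other for these 3 genes.

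Among the rest of the 10, *SLC38A5*, a glutamine and neutral amino acid transporter, was at 218, 277 and 325 TPM in treated H82 and 0.69 to 1.1 TPM in treated H146 (difference 7.14 ± 0.19, adjusted p = 2.55e-07). *HRASLS*, a phospholipase and acyltransferase, was at 243, 259.6 and 230.1 TPM against 0.685 to 0.94 TPM (difference 7.09 ± 0.15, adjusted p = 1.23e-07). *MAB21L1*, a gene of eye development, was at 183, 201 and 252 TPM against 0.43 to 0.956 TPM (difference 7.02 ± 0.19, adjusted p = 2.55e-07). The unnamed locus *AC066593.1* was at 102, 149 and 149.6 TPM in H82 and listed at 0 in every treated H146 library. *GAGE2A*, *IMPG2* and *ALB* complete the 10 and are described with their groups. Of the 10, *ALB* alone did not differ between the untreated lines, and the other 9 were higher in H82 in both states.

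The largest differences in favour of H146 reached higher levels still. *AMBN* (chr4:70592256-70607288), an enamel matrix protein, was at 3249.5, 4626, 3262 and 3272 TPM in treated H146 and at 0.416, 0.138 and 0.317 TPM in treated H82 (difference -11.44 ± 0.18, adjusted p = 2e-08). The gene was at 154, 171 and 135 TPM in untreated H146, so its treated level there was far above the untreated one. *NTS* (chr12:85874295-85882992), the precursor of the peptide neurotensin, was at 15165, 10094, 8986 and 10382 TPM against 2.23, 21.4 and 0.82 TPM (difference -11.07 ± 0.74, adjusted p = 8.42e-06). *CD177* (chr19:43353686-43363172), a glycoprotein known from neutrophils, was at 885, 829, 967 and 911 TPM against 0, 0.166 and 0.255 TPM (difference -9.63 ± 0.15, adjusted p = 2e-08), and untreated H146 held 85.4, 93.3 and 87.3 TPM.

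*P2RX2*, an ATP-gated ion channel, followed the same course, at 310.0, 304, 137 and 99.5 TPM with drug in H146, 11.3, 10.3 and 13.4 TPM without it and 0.121, 0.211 and 0.259 TPM in treated H82 (difference -7.32 ± 0.40, adjusted p = 3.42e-06). *GHRH*, the growth hormone releasing hormone, was at 2373 to 2991 TPM in untreated H146 and 581, 537, 348 and 356 TPM in treated H146, far above treated H82 at 0, 0 and 0.448 TPM (difference -8.62 ± 0.25, adjusted p = 2.74e-07). *SOX2*, a stem cell and neural lineage factor, was at 1301, 1502, 1141 and 1131 TPM against 3.99, 71.6 and 1.73 TPM (difference -6.98 ± 0.96, adjusted p = 0.000351), with library 2 the highest of H82 (-8.42 without it). The long non-coding RNA *MIAT* was at 415, 475, 219.9 and 162 TPM against 1.53, 1.9 and 0.323 TPM (difference -7.09 ± 0.43, adjusted p = 5.02e-06). *MIR4664* is a microRNA entry at 473, 226, 695 and 671 TPM in treated H146, and these libraries do not show whether its reads came from the microRNA or from a longer transcript. *MAGEC2* and *MAGEA8* complete the 10.

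**Figure D2:**
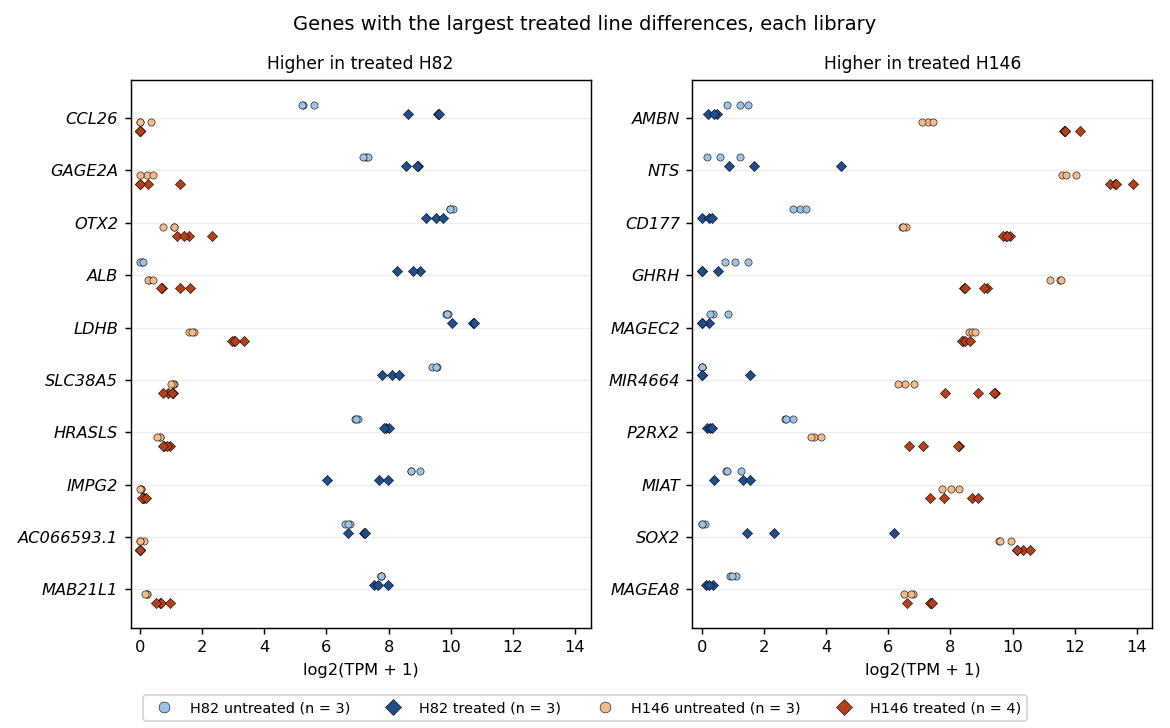
Level of the 20 genes with the largest treated differences in each of the 13 libraries, as log2(TPM + 1), with circles for untreated and diamonds for treated libraries of H82 (blue) and H146 (orange). In all 20 genes the treated libraries of the lines do not overlap, and for *SOX2* and *NTS* 1 treated H82 library lies far to the right of the others.

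Nearly the whole NE signature was higher in treated H146. Of 24 signature genes, all of them tested, 21 were higher in H146 and 1 in H82, with a median difference of -2.68. Without drug, 13 were higher in H146 and 5 in H82, with a median of -0.85. Of the 24, 13 differences were kept (12 of them in favour of H146), 4 appeared and 4 were opposite, all 8 of these in favour of H146. *KIF1A*, a kinesin that carries synaptic vesicle precursors, was at 2.79, 19.2 and 0.63 TPM in treated H82 and 536, 602, 426 and 409 TPM in treated H146 (difference -6.61 ± 0.71, adjusted p = 9.83e-05). *KIF5C*, a neuronal kinesin, was at 3.63, 12.9 and 1.65 TPM against 192, 151, 95 and 93.5 TPM (difference -4.53 ± 0.53, adjusted p = 0.000147).

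The granin *CHGB*, a core protein of dense-core granules, is one of the differences that appeared: it was at 53.3, 44 and 49.2 TPM in untreated H82 and 70.1, 84.2 and 71.9 TPM in untreated H146 (adjusted p = 0.227), and with drug at 8.83, 46.1 and 10.5 TPM against 271, 284, 201 and 194 TPM (difference -3.75 ± 0.50, adjusted p = 0.000304). *SCG3*, a granin-binding protein of the same granules, was one of the opposite ones: untreated H82 held 229, 238 and 208 TPM against 85.6, 75.8 and 68.5 TPM, and with drug the levels were 13.6, 47.8 and 24.2 TPM against 74.6, 84.9, 69.7 and 78.1 TPM (difference -1.57 ± 0.36, adjusted p = 0.005). *SYP*, *MYT1* and *BSN* turned in the same way with TPM as deposited, but under the median of ratios *SCG3* alone of the 4 had opposite signs: the treated difference in *SYP* (-0.06, adjusted p = 0.83) and the untreated ones in *MYT1* (0.32, adjusted p = 0.273) and *BSN* (0.42, adjusted p = 0.0691) did not pass. The treated difference in *SYP* (difference -0.64 ± 0.23, adjusted p = 0.0392) no longer passed without any single library other than library 2 of either line (-0.38 and adjusted p = 0.0728 without H82 library 1). The single member higher in treated H82 was *RTN1*, a reticulon of the endoplasmic reticulum, at 65.4, 120.4 and 149.8 TPM against 42.2, 49.1, 25.4 and 24.7 TPM (difference 1.62 ± 0.35, adjusted p = 0.00378).

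Lineage transcription factors split the lines sharply. Of 30 listed, 23 were tested, and 17 were higher in treated H146 and 4 in treated H82 (median -2.23, and -1.67 without drug). On the H82 side, besides *OTX2*, *NEUROD1* stayed higher at the levels given above (difference 5.93 ± 0.30, adjusted p = 2.45e-06, from 7.38 without drug). *NHLH1*, a neuronal bHLH factor, was at 2.56, 2 and 1.84 TPM against 0.742 to 1.16 TPM (difference 0.73 ± 0.19, adjusted p = 0.00949), while its untreated difference had been 3.90. *NEUROD4* was the other, at 2.21, 17.4 and 2.1 TPM against at most 0.109 TPM, with a difference of 2.40 that was 1.55 without H82 library 2.

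On the H146 side, *FOXA2*, a forkhead factor of endoderm, was at 387, 549, 316 and 309 TPM in treated H146 and 2.62, 35.7 and 1.08 TPM in treated H82 (difference -5.87 ± 0.85, adjusted p = 0.000478, and -7.12 without H82 library 2). *POU3F2*, a neural POU factor, was at 42.6, 42.5, 49.6 and 52.7 TPM against 4.36, 4.66 and 4.39 TPM (difference -3.12 ± 0.16, adjusted p = 2.45e-06), a difference close to its untreated one of -3.44. *SOX1* was at 16.8, 12.7, 30.1 and 38.4 TPM against 0.0977 to 0.378 TPM (difference -4.25 ± 0.37, adjusted p = 2.92e-05), up from an untreated difference of -1.48. *SOX4* and *SOX11*, which act in neural progenitors, did not pass without drug and were higher in treated H146: *SOX4* was at 55.7, 121 and 126 TPM against 428, 477, 368 and 378 TPM (difference -2.10 ± 0.29, adjusted p = 0.000382). With scaling by the median of ratios *SOX4* also differed without drug (-0.81, adjusted p = 0.0121), its change did not pass (adjusted p = 0.09), and the treated difference in *SOX11* was lost (-0.47, adjusted p = 0.0932). *INSM1*, a zinc finger factor that marks NE tumours, was at 32.1, 296 and 33.9 TPM against 899.5, 1018, 758 and 804 TPM (difference -3.63 ± 0.70, adjusted p = 0.00214), with library 2 again the highest of H82 (-4.67 without it).

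Synaptic vesicle and exocytosis genes followed the NE signature. Of 27 tested of 28 listed, 23 were higher in treated H146 and 2 in treated H82 (median -2.12, and -1.14 without drug). *UNC13A*, which primes vesicles for fusion, gave the clearest appeared difference: untreated levels overlapped at 40.7, 35.3 and 40.9 TPM in H82 and 47.3, 50.3 and 34.7 TPM in H146, whereas treated levels were 0.502, 1.84 and 0.41 TPM and 73.9, 67, 56.5 and 52.9 TPM (difference -5.12 ± 0.27, adjusted p = 3.05e-06). *SYT4*, a synaptotagmin, was at 1.75, 19.5 and 0.575 TPM against 314, 261, 235 and 238 TPM (difference -5.87 ± 0.74, adjusted p = 0.000233). The 2 members higher in treated H82 were *SV2C* (1.48) and *SYN2*, a synapsin at 14.8, 25.1 and 28 TPM against 4.21, 5.32, 2.21 and 2.36 TPM (difference 2.40 ± 0.32, adjusted p = 0.000318) that had been higher in untreated H146.

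Of 11 granin and peptide processing genes, 8 were higher in treated H146 and 2 in treated H82 (median -1.78). *SCG2*, secretogranin II, was at 733, 925, 302 and 309 TPM in H146 and 8.83, 73 and 4.41 TPM in H82 (difference -4.99 ± 0.84, adjusted p = 0.0011, and -6.11 without H82 library 2). *CPE*, the carboxypeptidase that trims peptide hormones, went the other way and appeared with drug: it was at 564, 557 and 545 TPM in treated H82 against 155, 176, 139.9 and 147 TPM (difference 1.85 ± 0.15, adjusted p = 2.33e-05), after untreated levels of 223 to 242 and 207 to 233 TPM. *SCG5*, the chaperone of a prohormone convertase, was the other in favour of H82, at 35.1, 26 and 16.6 TPM against 0.684 to 2.04 TPM (difference 3.56 ± 0.30, adjusted p = 2.68e-05).

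The neuropeptides themselves were divided. Of 18 listed, 11 were tested, 5 were higher in treated H146 and 4 in treated H82 (median -1.23). *NMU*, neuromedin U, was at 199, 198, 104 and 120.4 TPM against 3.68, 17.2 and 2.49 TPM (difference -4.49 ± 0.54, adjusted p = 0.000176), and *GAL*, galanin, was at 11.6, 51.1 and 53 TPM in H82 against 0.169, 0.737, 2.15 and 1.93 TPM (difference 3.98 ± 0.57, adjusted p = 0.00044). *VIP*, vasoactive intestinal peptide, appeared in favour of H146, at 3.75, 3.43, 8.6 and 8.28 TPM with drug, at most 0.165 TPM without it and at most 0.0754 TPM in treated H82 (difference -2.68 ± 0.32, adjusted p = 0.000178). *GRP*, gastrin-releasing peptide, was the only member with opposite signs: H146 held 69, 67.9 and 73.5 TPM without drug and 0.258, 1.13, 0.378 and 0.588 TPM with it, against 5.48, 56.4 and 1.65 TPM in treated H82 (difference 2.68 ± 0.88, adjusted p = 0.0277). Library 2 held most of the *GRP* of treated H82, and without it the difference was 1.41. The call was lost without H146 library 1, 3 or 4 (adjusted p of 0.0648, 0.0552 and 0.051).

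Epithelial genes were the most one-sided group. All 25 tested of 28 listed were higher in treated H146 and none in H82 (median -4.34, and -5.46 without drug), and 23 of these differences were kept. *CDH1*, E-cadherin, was at 0.213, 0.404 and 0.124 TPM in treated H82 and 59.2, 90.2, 56.3 and 55.9 TPM in treated H146 (difference -5.71 ± 0.22, adjusted p = 8.61e-07). *CRB3*, a polarity protein, was at 0.3, 0 and 0.16 TPM against 36, 33.4, 34 and 39 TPM (difference -4.99 ± 0.18, adjusted p = 6.24e-07). *MAL2*, a protein of apical transport, was at 2.65, 9.47 and 0.483 TPM against 197, 197, 223 and 262 TPM (difference -5.83 ± 0.55, adjusted p = 4.74e-05). The summed level of the list was 46.2, 251 and 22.8 TPM in treated H82 libraries 1, 2 and 3 and 1911 to 2104 TPM in treated H146. Under the median of ratios 22 of 24 were higher in H146 and under quantile normalization 21 of 25, with none higher in H82.

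Differences in *KRT8* and *KRT19* were smaller with drug than without it. *KRT8* was at 465, 491 and 516 TPM in untreated H146 and 131, 136, 106 and 111 TPM with drug, against 6.67, 23.9 and 3.02 TPM in treated H82 (difference -3.73 ± 0.52, adjusted p = 0.0004, from -8.52 without drug). *KRT19* was at 53.3, 62.2, 60.3 and 57.6 TPM against 1.43, 50.2 and 1.15 TPM (difference -3.20 ± 0.98, adjusted p = 0.0203, from -9.56, and -4.70 without H82 library 2), and the call was lost without H82 library 1 (adjusted p = 0.0836) or 3 (0.0787).

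Photoreceptor and pineal genes marked H82 in both states, but by fewer genes with drug. Of 30 listed, 17 were tested, 8 were higher in treated H82 and 5 in treated H146, with a median of 0.57. Without drug, 13 of the 17 were higher in H82 and 2 in H146, with a median of 3.96. Lost as line differences were 4 genes: *NRL*, a rod transcription factor, *GNB3*, a cone transducin subunit, *PRDM1* and *PRPH2*. Under the median of ratios the treated count was 11 and 1, and under quantile normalization 11 and 0, so the calls in favour of H146 depended on scaling. Of the 4 lost differences, those in *GNB3* (1.09, adjusted p = 0.0101) and *PRPH2* (0.79, adjusted p = 0.0342) passed with drug under the median of ratios, and *PRDM1* did not pass without drug there (adjusted p = 0.0648).

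To show what the promoters of this group look like, 3 are printed from RefSeq (GRCh38.p14), each as the 250 bases before the annotated start on the gene's strand, read 5′ to 3′. Capitals mark TAATCC or its reverse complement GGATTA, the core bound by the homeobox proteins OTX2 and CRX. *CRX* is shown as the retinal factor of the same family that lay below the level filter, *PDE6A* as a phototransduction gene whose difference shrank, and *IMPG2* as the retinal gene with the largest remaining difference after *OTX2*. *CRX* lies on the plus strand, and *PDE6A* and *IMPG2* on the minus strand.
CRX, chr19:47821687-47821936: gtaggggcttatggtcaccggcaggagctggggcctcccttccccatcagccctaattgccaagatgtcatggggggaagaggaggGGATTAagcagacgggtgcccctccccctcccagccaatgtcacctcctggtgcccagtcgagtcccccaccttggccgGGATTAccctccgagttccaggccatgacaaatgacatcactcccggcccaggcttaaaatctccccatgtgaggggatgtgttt
PDE6A, chr5:149944794-149945043: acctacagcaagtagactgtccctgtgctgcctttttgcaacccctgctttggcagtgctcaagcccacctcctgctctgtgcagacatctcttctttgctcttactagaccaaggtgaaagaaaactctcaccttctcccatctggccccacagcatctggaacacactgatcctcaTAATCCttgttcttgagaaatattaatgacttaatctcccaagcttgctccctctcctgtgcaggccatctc
IMPG2, chr3:101320576-101320825: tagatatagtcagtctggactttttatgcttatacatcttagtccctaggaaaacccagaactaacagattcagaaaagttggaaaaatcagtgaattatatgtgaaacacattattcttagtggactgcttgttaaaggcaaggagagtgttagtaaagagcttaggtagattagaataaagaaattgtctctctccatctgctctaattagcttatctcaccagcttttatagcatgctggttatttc

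The *CRX* sequence holds the motif 164 and 85 bases before the start and that of *PDE6A* 72 bases before it, while *IMPG2* has no match in this window. In windows of 300 bases (250 before to 50 after the start, both strands), 5 of 24 matched photoreceptor promoters (20.8%) and 1744 of 27305 promoters in all (6.39%) held the 6 letters. The other matches were *CNGB1*, *GUCA1A* and *SAG*. A match is a description of the sequence and not of binding, and no binding was measured here.

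The 3 genes differed in what remained of them with drug. *CRX* was at 36.6, 32.6 and 33.9 TPM in untreated H82 and 0.678, 0.533 and 0.788 TPM with drug, against at most 0.351 TPM in treated H146, which left it below the filter. *PDE6A*, a subunit of the rod phosphodiesterase, went from 44.2, 46.7 and 41.7 TPM to 1.11, 1.59 and 2.08 TPM, against 0.415, 0.345, 0.376 and 0.135 TPM in treated H146 (difference 0.97 ± 0.20, adjusted p = 0.00334, from 5.24 without drug). *IMPG2*, a proteoglycan of the retinal matrix, was at 425, 516 and 421 TPM without drug and 64, 204 and 250.1 TPM with it, against at most 0.156 TPM (difference 7.09 ± 0.42, adjusted p = 4.93e-06).

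Other members of the group kept part of the line difference. *AIPL1*, a chaperone of photoreceptors, went from 392 to 437 TPM to 18.3, 9.3 and 11 TPM in H82 and stayed above treated H146 at 0 to 0.162 TPM (difference 3.67 ± 0.25, adjusted p = 8.77e-06, from 8.34). *PDE6H*, a cone phosphodiesterase subunit, was at 10.6, 5.94 and 8.02 TPM and was listed at 0 in every treated H146 library (difference 3.17 ± 0.22, adjusted p = 9.17e-06). *GNGT1*, the gamma subunit of rod transducin, was higher in H146 instead, at 12.7, 13.2, 14.8 and 15.8 TPM against 1.01, 7.46 and 7.51 TPM (difference -1.52 ± 0.48, adjusted p = 0.0227), and did not pass under the median of ratios (adjusted p = 0.103) or quantile normalization (0.177). Without H82 library 1 its difference was -0.83.

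*MYC* and *MYCL* stayed on the side of H82. *MYC* was at 1491, 2320.2 and 2662 TPM in treated H82 and 356, 329, 503 and 505 TPM in treated H146 (difference 2.33 ± 0.27, adjusted p = 0.000153, from 1.57 without drug). *MYCL* was at 34.6, 20.1 and 22.8 TPM against 2.67, 2.29, 1.82 and 2.1 TPM (difference 3.03 ± 0.23, adjusted p = 1.5e-05). *MYCN* did not pass with TPM as deposited (adjusted p = 0.0457 under quantile normalization): library 2 of treated H82 was at 61.8 TPM and the other 2 at 1.97 and 1.27 TPM, against 0.808 to 1.27 TPM. Among genes of the proteins that compete with MYC for MAX, *MXD4* was at 103, 56.3, 139.7 and 150.4 TPM in H146 against 17.8, 29.7 and 24.2 TPM (difference -2.12 ± 0.35, adjusted p = 0.000908). *MXD1*, *MXD3* and *MNT* were also higher in H146 (differences -1.48, -2.02 and -1.25), and *MXI1* did not pass (-0.42, adjusted p = 0.0775). Of the 13 genes of the network, 3 were higher in H82 and 5 in H146, with a median of -0.42 that turned to 0.16 under the median of ratios with 5 and 5.

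In the NOTCH pathway, receptors and ligands were unevenly shared. Of 20 tested of 23 listed, 15 were higher in treated H146 and 5 in treated H82 (median -1.38, and 10 against 5 under both the median of ratios and quantile normalization). Among receptors, *NOTCH2* was at 15.8, 26.3 and 33.8 TPM in H82 against 0.754 to 0.976 TPM (difference 3.76 ± 0.26, adjusted p = 1e-05), and *NOTCH3* at 24.3, 21.1, 16.7 and 14.8 TPM in H146 against 3.56, 1.12 and 1.62 TPM (difference -2.76 ± 0.30, adjusted p = 0.000102). Among ligands, *DLL1* was at 174, 205, 135 and 109.9 TPM against 8.93, 11.2 and 6.8 TPM (difference -3.96 ± 0.25, adjusted p = 6.75e-06), *JAG2* differed by -2.95, and *DLL3*, the inhibitory ligand used as a drug target in SCLC, was higher in H82 at 87.3, 159 and 149 TPM against 43.8, 44.3, 47.3 and 49.8 TPM (difference 1.45 ± 0.22, adjusted p = 0.000654). Among targets, *HEY1* was at 83.7, 70.9, 81.2 and 85.6 TPM against 7.87, 17.2 and 14.4 TPM (difference -2.58 ± 0.25, adjusted p = 5.18e-05). *REST*, the repressor of neuronal genes, was at 8.64, 7.74 and 10.4 TPM in H82 against 0.537, 0.52, 1.41 and 1.37 TPM (difference 2.37 ± 0.25, adjusted p = 8.81e-05), close to the untreated difference of 2.86.

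The subunits of the drug's own target complex were mostly higher in treated H146. Of 26 BAF subunits tested of 27 listed, 17 were higher in H146 and 1 in H82 (median -0.93), against 9 and 8 without drug. Of the 26, 5 were opposite, among them *ARID1A*, a DNA-binding subunit, which was at 65.4, 61.1 and 68.2 TPM in untreated H82 and 22.7, 25.8 and 15.7 TPM in untreated H146, and with drug at 31.2, 38.4 and 46.1 TPM against 59.5, 65.5, 74.5 and 73.2 TPM (difference -0.82 ± 0.18, adjusted p = 0.00413). *SMARCA4* was at 51, 93 and 106 TPM against 158, 157, 174 and 172 TPM (difference -1.05 ± 0.25, adjusted p = 0.00615) and *SMARCA2* at 3.71, 5.32 and 4.01 TPM against 7.7, 9.14, 8.16 and 7.63 TPM (difference -0.78 ± 0.19, adjusted p = 0.00664). *ACTL6B*, the neuronal actin-like subunit, had the largest difference, at 3.25, 14.3 and 1.92 TPM against 86.7, 85.9, 98.6 and 89.9 TPM (difference -3.99 ± 0.49, adjusted p = 0.000193), and *SMARCB1* was the single one higher in H82 (difference 0.80 ± 0.20, adjusted p = 0.00803). The differences in *ARID1A* (-0.24, adjusted p = 0.202), *SMARCA4* (-0.46, adjusted p = 0.107) and *SMARCA2* (-0.28, adjusted p = 0.238) did not pass under the median of ratios. By count, 10 subunits were then higher in H146 and 2 in H82, and under quantile normalization 11 and 2.

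Among 17 tested Hippo pathway genes of 18 listed, 6 were higher in treated H146 and 2 in treated H82, with a median of -0.27. Under the median of ratios the count turned to 4 and 6 with a median of 0.31, so no direction is given for the pathway. *TEAD2*, a DNA-binding partner of YAP, was at 21.2, 41.6 and 39.2 TPM in H82 against 2.47, 2, 5.83 and 5.31 TPM (difference 2.87 ± 0.37, adjusted p = 0.000253). *YAP1* itself was at 1.94, 2.18 and 2.9 TPM against 0.471, 0.575, 0.937 and 0.588 TPM (difference 1.02 ± 0.20, adjusted p = 0.00233). *LATS2*, a kinase that holds YAP back, was at 3.29, 3.88, 2.79 and 2.75 TPM in H146 against 0.0498 to 0.15 TPM (difference -1.92 ± 0.19, adjusted p = 5.45e-05). The difference in favour of H82 was lost in 5 members, *AMOTL2*, *LATS1*, *STK4*, *SAV1* and *NF2*, of which *AMOTL2* and *SAV1* passed with drug under the median of ratios (1.39 and 0.75, adjusted p = 0.00848 and 0.00461). *AMOTL2* passed without H82 library 1 too (1.31, adjusted p = 0.00152).

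Of 15 ERBB receptors and ligands, 6 were tested, and *EGFR*, *EGF*, *TGFA*, *AREG* and *EREG* were among those below the filter. Of the 6, 4 were higher in treated H146 and 1 in treated H82 (median -1.45, and 2 against 1 under quantile normalization). *ERBB4* was at 27.1, 43.2, 23 and 24.7 TPM against 1.28, 1.08 and 0.274 TPM (difference -4.02 ± 0.29, adjusted p = 1.27e-05) and its ligand *NRG1* at 12.3, 17.5, 11 and 11.7 TPM against 1.7, 0.698 and 0.529 TPM (difference -2.86 ± 0.26, adjusted p = 4.25e-05). The related ligand *NRG2* lay on the other side, at 9.99, 10.0 and 11.8 TPM in H82 against 0.0972, 0.283, 0.498 and 0.221 TPM (difference 3.19 ± 0.19, adjusted p = 5.36e-06). *ERBB2* and *ERBB3* did not differ by the test without drug and were higher in treated H146, *ERBB3* at 4.17, 3.72, 2.68 and 2.52 TPM against 0.912, 0.583 and 0.593 TPM (difference -1.32 ± 0.22, adjusted p = 0.000921). The call on *ERBB2* was lost under the median of ratios (adjusted p = 0.0823) and that on *ERBB3* under quantile normalization (0.072).

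For MHC class I presentation, 13 of 20 genes were tested, 6 higher in treated H146 and 3 in treated H82 (median -0.45). *HLA-B* was at 8.07, 1.96 and 3.51 TPM against 45.1, 63.3, 37.3 and 29.8 TPM (difference -3.13 ± 0.40, adjusted p = 0.000227) and *HLA-C* at 27, 39.1 and 12.1 TPM against 202, 298, 130.2 and 119 TPM (difference -2.85 ± 0.43, adjusted p = 0.000639). HLA genes are variable between people and share reads, so their levels depend on how well each line matches the reference. *PDIA3*, of the peptide loading complex, was at 761, 375 and 337 TPM in H82 against 111, 145, 107 and 108 TPM (difference 1.96 ± 0.29, adjusted p = 0.000539), and *TAPBP*, tapasin of the same complex, at 52.4 to 58.5 TPM in H146 against 6.29, 6.89 and 3.91 TPM (difference -3.08 ± 0.20, adjusted p = 6.72e-06).

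Of 20 surface antigens of interest in SCLC, 17 were tested, 10 were higher in treated H146 and 4 in treated H82 (median -1.16). *CD24*, a mucin-like sialoglycoprotein, was at 731, 933, 601 and 660.0 TPM against 7.91, 69.6 and 2.76 TPM (difference -5.76 ± 0.83, adjusted p = 0.000474), and *CD47*, the signal that restrains phagocytosis, at 239, 224, 219 and 226 TPM against 37.4, 47.5 and 43 TPM (difference -2.39 ± 0.15, adjusted p = 5.48e-06). *PROM1* (CD133) was at 24.4, 31.1 and 36.3 TPM in H82 against 0.414, 0.616, 1.2 and 1.12 TPM (difference 4.11 ± 0.24, adjusted p = 4.36e-06), and *GPC3*, a glypican, at 23.5, 25.9 and 35.7 TPM against 1.5, 1.85, 5.34 and 4.02 TPM (difference 2.90 ± 0.35, adjusted p = 0.000186). *L1CAM*, a neural adhesion molecule, appeared: it was at 21.4, 19.5 and 22.5 and 25.6, 22.6 and 23.7 TPM without drug, and at 1.1, 3.89 and 0.684 TPM in treated H82 against 31.7, 40.1, 28.9 and 23.5 TPM (difference -3.61 ± 0.37, adjusted p = 7.21e-05).

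Of 26 genes of drug response and cell cycle control, 22 were tested, 13 were higher in treated H146 and 4 in treated H82 (median -1.12). *MGMT*, which repairs alkylated guanine, was at 42.8, 25 and 25.2 TPM in H82 and at most 0.197 TPM in H146 (difference 4.79 ± 0.24, adjusted p = 2.33e-06). *CDKN1A*, the inhibitor p21, was at 177, 123, 141 and 123 TPM against 6.23, 56.3 and 4.39 TPM (difference -3.42 ± 0.72, adjusted p = 0.00334, and -4.49 without H82 library 2). The cyclins were divided, with *CCND2* at 39.5, 43.3 and 58.2 TPM in H82 against 4.77, 8.09, 3.78 and 3.48 TPM (difference 3.03 ± 0.28, adjusted p = 4.06e-05) and *CCND1* appearing in favour of H82 at 4.45, 14.3 and 17.8 TPM against 2.07, 1.92, 2.51 and 1.97 TPM (difference 1.90 ± 0.40, adjusted p = 0.00338).

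Cancer-testis antigens separated the lines gene by gene. Of 34 listed, 26 were tested, 14 were higher in treated H82 and 9 in treated H146 (median 1.29), and 19 of the 23 differences were kept. *GAGE2A* was at 379, 491 and 479 TPM in treated H82 and 1.46, 0, 0.203 and 0 TPM in treated H146 (difference 8.41 ± 0.33, adjusted p = 8.61e-07), and *PAGE1* at 1102, 1287 and 1209 TPM against 6.61, 6.57, 13.5 and 15.4 TPM (difference 6.79 ± 0.30, adjusted p = 1.52e-06). *MAGEC2* was at 334, 330.4, 353 and 398 TPM in H146 and 0.18, 0 and 0 TPM in H82 (difference -8.39 ± 0.15, adjusted p = 3.96e-08), and *MAGEA8* at 165, 96.4, 161 and 168 TPM against 0.101, 0.294 and 0.162 TPM (difference -6.94 ± 0.23, adjusted p = 4.43e-07). These genes lie in multicopy families on the X chromosome, and reads shared between copies make single GAGE and MAGE values uncertain. *PRAME* lies outside those families and was at 141, 180.4 and 208 TPM against 14, 12.9, 13.8 and 13.9 TPM (difference 3.58 ± 0.17, adjusted p = 1.83e-06).

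HOX genes showed the sharpest pattern by cluster. Of 39 listed, 33 were tested, 12 were higher in treated H82 and 16 in treated H146 (median -0.86, and 14 on each side under the median of ratios), and 23 of the 28 differences were kept. All 7 tested HOXC genes were higher in H82, such as *HOXC4* at 16.9, 19 and 21.3 TPM against 0.363, 0.352, 0.197 and 0.11 TPM (difference 4.0 ± 0.19, adjusted p = 1.84e-06) and *HOXC8* at 9.23, 31 and 35.2 TPM against 0.114 to 0.282 TPM (difference 4.29 ± 0.41, adjusted p = 5.34e-05). The 7 genes from HOXB3 to HOXB9 were all higher in H146, such as *HOXB7* at 56.7, 46.7, 73.1 and 78.3 TPM against 15.2, 21.2 and 16.9 TPM (difference -1.77 ± 0.22, adjusted p = 0.000211). In the HOXD cluster the sides changed along the array, since *HOXD8* was higher in H82 (18.9, 8.82 and 7.76 against 0.71, 0.689, 0.204 and 0.152 TPM, 3.08) and *HOXD11* in H146 (0.793, 3.88 and 0.484 against 33.8, 49, 32.5 and 37.7 TPM, -4.04).

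Of 26 mesenchymal genes listed, 22 were tested, 7 were higher in treated H82 and 6 in treated H146 (median 0.21, and -0.29 without H82 library 3, with 9 and 4 under the median of ratios and 10 and 3 under quantile normalization). *VIM*, vimentin, was at 43.6, 44.1 and 44 TPM in treated H82 against 1.94, 2.31, 2.08 and 1.84 TPM (difference 3.88 ± 0.16, adjusted p = 1.2e-06), and *ZEB1*, a repressor of E-cadherin, at 14.1, 12.3 and 13.3 TPM against 0.737, 0.591, 0.211 and 0.231 TPM (difference 3.31 ± 0.21, adjusted p = 6.38e-06). *MMP2*, a matrix metalloproteinase, had the largest difference in favour of H82 (30.0, 24.6 and 35 against 0.446 to 0.978 TPM, 4.21). *CDH2*, N-cadherin, was at 147, 161, 225 and 226 TPM in H146 against 3.86, 4.65 and 2.86 TPM (difference -5.30 ± 0.22, adjusted p = 1.24e-06).

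Of the 25 genes of the non-NE signature, 20 were tested, 4 were higher in treated H82 and 7 in treated H146 (median 0.15, and -0.19 without H82 library 3), and the counts were 7 and 6 under the median of ratios and 11 and 3 under quantile normalization. *S100A16*, a calcium-binding protein, was at 50.2, 33.8 and 38.9 TPM in H82 against 0.471 to 0.82 TPM (difference 4.69 ± 0.20, adjusted p = 1.35e-06). *ANXA1*, a phospholipid-binding protein, was at 43.4, 81.3, 41.2 and 45.2 TPM in H146 against 0.733, 1.73 and 3.89 TPM (difference -4.18 ± 0.38, adjusted p = 3.69e-05), and untreated H146 had held 5.21 to 5.57 TPM. Among 18 tested S100 proteins and annexins of 24 listed, 7 were higher on each side (median 0.08, turning to -0.07 without H82 library 3, and 10 against 5 under the median of ratios). *ANXA5*, an annexin used to detect dying cells, appeared in favour of H82 at 114, 116 and 100.0 TPM against 17.6, 22.2, 36.8 and 41.8 TPM (difference 1.94 ± 0.29, adjusted p = 0.000623), although under the median of ratios it was higher in untreated H146 (-0.57, adjusted p = 0.041).

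With TPM as deposited, fewer ribosome biogenesis genes differed with drug than without it, and 9 of the differences were lost. Without drug 20 of the 24 were higher in H82 and none in H146 (median 1.22), and with drug 8 were higher in H82 and 1 in H146 (median 0.45). The treated counts were 18 in favour of H82 and 1 in favour of H146 under the median of ratios (median 0.99). They were 12 and 1 under quantile normalization, so the number of lost differences depended on scaling. *UTP20*, of the small subunit processome, was among those lost with TPM as deposited. It was at 41.9, 48.5 and 42 TPM in untreated H82 and 4.86, 4.64 and 3.24 TPM in untreated H146. With drug it was at 9.2, 24.4 and 29.5 against 10.9, 7.47, 18.3 and 19.9 TPM (adjusted p = 0.367). *NPM1*, nucleophosmin, stayed higher in H82 at 3409, 2367 and 2471 TPM against 794, 856, 957 and 1056 TPM (difference 1.57 ± 0.22, adjusted p = 0.00044), as did *RRP9* (1.63).

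Several counts in favour of H146 were smaller under the median of ratios, as was that of all genes (6049 of 19364 higher in H146 and 5315 in H82). The counts higher in H146 and in H82 were then 17 and 1 for the NE signature, 14 and 4 for lineage factors, 20 and 2 for synaptic genes, 9 and 5 for drug response, 9 and 6 for surface antigens and 5 and 4 for MHC class I.

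**Figure D3:**
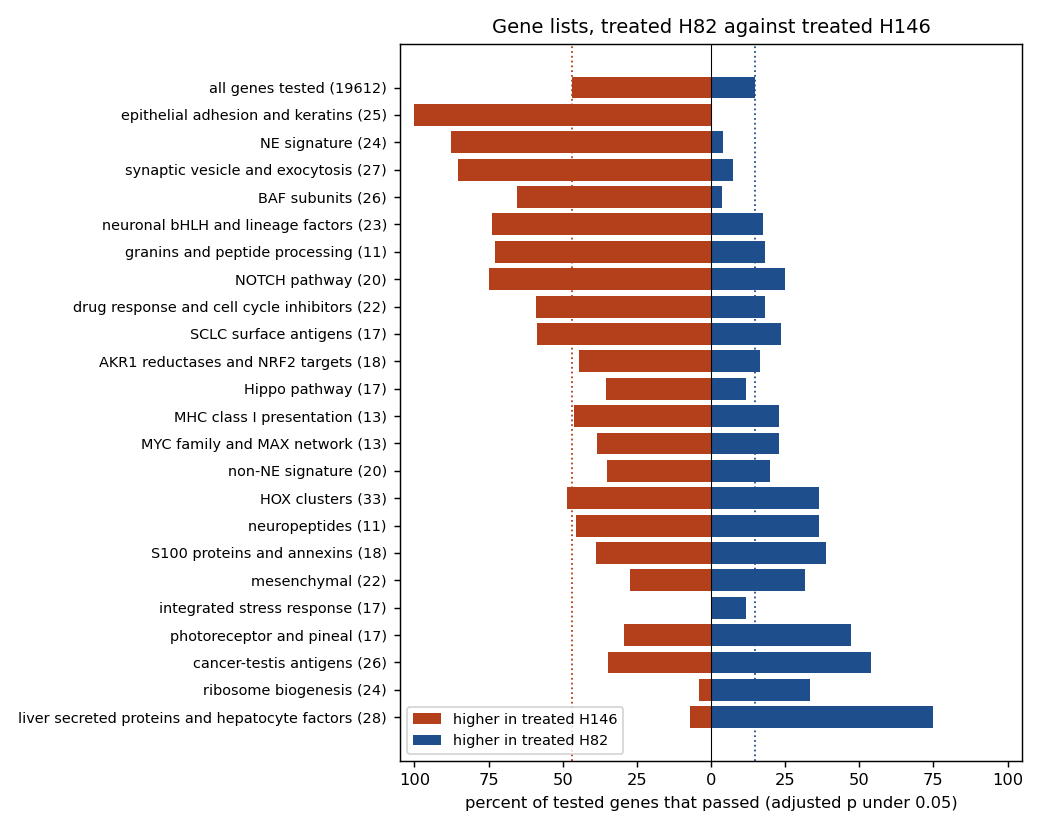
Percent of the tested genes of each list that were higher in treated H146 (bars to the left) or treated H82 (bars to the right), with the number tested in brackets and dotted lines at the values of all 19612 genes (46.7% and 15%). Epithelial, NE and synaptic genes lie far past the dotted line on the H146 side, and liver and cancer-testis genes far past that on the H82 side.

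The differences that appeared under the drug in favour of H82 were led by genes of plasma proteins made in the liver. The 6 largest were *ALB*, *ORM1*, *SAA1*, *APOC3*, *APOA2* and *HP*, and none of them differed between the untreated lines by the test. *ALB* (chr4:73397114-73421482), albumin, was at 515, 310.1 and 444 TPM in treated H82, 0.618, 0.599, 2.06 and 1.45 TPM in treated H146 and at most 0.0606 TPM in untreated H82 (difference 7.63 ± 0.29, adjusted p = 8.29e-07). *ORM1*, an acute-phase glycoprotein, was at 214, 79.6 and 185 TPM against 0.244, 0, 0 and 0.444 TPM (difference 7.0 ± 0.35, adjusted p = 2.3e-06), and *SAA1*, serum amyloid A, at 113, 33 and 507 TPM against 0, 0.278, 0.421 and 0.262 TPM (difference 6.67 ± 0.75, adjusted p = 0.000124). *APOC3*, *APOA2* and *HP* were at 65.1 TPM or more in every treated H82 library except for *APOA2* in library 2 (27.8 TPM), and below 1 TPM in all 4 treated H146 libraries.

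This group was listed after its values had been seen, so its counts and tests support nothing beyond a description. Of 32 liver genes, 28 were tested, 21 were higher in treated H82 and 2 in treated H146 (median 3.48), and 17 differences appeared. The summed level was 2019, 1008 and 2540 TPM in treated H82 libraries 1, 2 and 3, 61.2 to 195 TPM in treated H146 and 26.9 to 32.2 TPM in untreated H82. Fibrinogen genes were part of it, with *FGB* at 128, 24.8 and 164 TPM against at most 0.238 TPM (difference 6.23 ± 0.57, adjusted p = 4.04e-05). The 2 genes higher in treated H146 were hepatocyte transcription factors. *HNF4A* was at 0.278, 0.152 and 0.209 TPM in treated H82 and 1.83, 1.98, 1.32 and 1.52 TPM in treated H146 (difference -1.13 ± 0.18, adjusted p = 0.000832, and 0.254 under quantile normalization). *FOXA3* differed by -1.24, though not under the median of ratios (adjusted p = 0.0543). Its difference was -2.40 without drug, and this change towards H82 passed (1.16, interaction adjusted p = 0.00787). The fetal liver marker *AFP* was at most 0.128 TPM in treated H82. Whether these transcripts were made by H82 cells was not tested, and in bulk RNA fewer cells of a type and less RNA per cell cannot be told apart.

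The 6 largest differences that appeared in favour of H146 were those of 3 protein-coding genes and 3 other entries. *LRRTM1* (chr2:80288351-80304752), a synaptic adhesion protein, was at 149, 109, 84 and 82.8 TPM in treated H146, 0.545, 1.71 and 1.04 TPM in treated H82 and under 1 TPM in all 6 untreated libraries (difference -5.67 ± 0.27, adjusted p = 2.02e-06). *DPYSL3*, which acts in axon guidance, was at 876, 971, 787 and 818 TPM against 27.9, 66.4 and 49.3 TPM (difference -4.22 ± 0.28, adjusted p = 7.47e-06). Its untreated levels were 99, 99.2 and 104 TPM in H82 and 143, 161 and 113 TPM in H146, a difference that passed under the median of ratios (adjusted p = 0.0181) and not with TPM as deposited. *UNC13A*, above, was the other protein-coding gene. The remaining 3 of the 6 were *SNORD117*, a small nucleolar RNA listed at 0 in all treated H82 libraries and at 53.5, 212, 22.6 and 35.6 TPM in treated H146, and the entries *RF02247* (-4.89) and *RP11-328P23.3* (-4.39), for which no coordinates were matched.

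Lost differences ran in both directions. *ACTA1* (chr1:229430365-229434104), skeletal muscle actin, was at 515, 699 and 446 TPM in untreated H82 and 0.581, 0.898 and 0.526 TPM in untreated H146. With drug it was at 1.76, 2.97 and 1.79 TPM and 3.31, 1.21, 2.51 and 0.803 TPM, which overlap (difference 0.17 ± 0.33, adjusted p = 0.684). *NRL* went from 126, 106 and 118 TPM in untreated H82 to 1.34, 1.07 and 0.901 TPM, overlapping with treated H146 at 0.741, 1.16, 0.999 and 1.06 TPM. For *ACTA1* and *NRL* the treated difference passed under quantile normalization (0.99 and 0.91, adjusted p = 0.033 and 0.00284), at levels near 1 to 3 TPM.

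*TXNIP*, an inhibitor of thioredoxin and of glucose uptake, closed the gap from the H146 side: untreated H146 held 5.75, 9.32 and 4.48 TPM and treated H146 189, 201, 168 and 164 TPM, while treated H82 held 11.6, 152 and 119.7 TPM against 298 to 333 TPM without drug. Its treated difference (-1.55 ± 0.76, adjusted p = 0.106) passed without H82 library 2 (-2.21, adjusted p = 0.0392). The entries *RP11-746P2.5*, *RNU6-415P* and *SNRPGP4* complete the 6 lost from the H82 side. The treated difference in *SNRPGP4* (0.996, adjusted p = 0.059) passed under the median of ratios (1.311, adjusted p = 0.025) and quantile normalization (1.725, 0.00296). It also passed without H82 library 2 (1.269, adjusted p = 0.0399). *RNU6-415P* is a copy of the U6 small nuclear RNA gene and *SNRPGP4* a pseudogene of *SNRPG*, so their reads may come from other copies.

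On the H146 side, the lost differences were led by *GDF15*, a stress-induced cytokine, which was at 1152, 1187 and 1544 TPM in untreated H146 and 0.735, 1.86 and 0.785 TPM in untreated H82. With drug it was at 9.11, 30.7, 7.81 and 6.09 TPM against 8.36, 11.2 and 0.122 TPM (-1.24 ± 0.85, adjusted p = 0.236). *AKR1C3*, a ketosteroid reductase, went from 503 to 544 TPM in untreated H146 to 2.3, 3.69, 0.781 and 0.508 TPM, against 1.61, 0.919 and 1.58 TPM in treated H82 (adjusted p = 0.817), and *AKR1C1* from 295 to 352 TPM to 9.01, 27.6, 3.67 and 3.43 TPM against 1.76, 3.53 and 1.7 TPM. *IGFBP5*, which binds insulin-like growth factors, was at 238, 504 and 189 TPM in untreated H146 and at 10.1, 10.8, 6.73 and 5.35 TPM against 5.42, 71.6 and 8.87 TPM with drug, the highest H82 library again being number 2 (difference 0.89, and -0.17 without it). *KCNA1*, a potassium channel, and *GPC5-AS1* were the other 2. *KCNA1* differed by -0.23 (adjusted p = 0.799), and by -1.18 without H82 library 2 (adjusted p = 0.0533). *GPC5-AS1* passed with drug when H82 library 2 was left out (-2.16, adjusted p = 0.011).

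The AKR1 reductases and NRF2 targets as a list kept 10 of their differences. All 18 were tested, 8 were higher in treated H146 and 3 in treated H82 (median -0.92, and 4 against 4 under the median of ratios), after 12 and 3 without drug. *AKR1B10* was at 13.4, 16.5 and 23.5 TPM in treated H82 against at most 0.185 TPM (difference 4.12 ± 0.23, adjusted p = 3.5e-06), and *TXNRD1*, thioredoxin reductase, at 1046, 1026, 919 and 1022 TPM in H146 against 224, 227 and 213 TPM (difference -2.17 ± 0.16, adjusted p = 1.18e-05). *AKR1C2* passed in favour of H146 (difference -2.21 ± 0.77, adjusted p = 0.0346) but not without H82 library 1 or 3, H146 library 1 or 2, or under the median of ratios (adjusted p = 0.1).

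Opposite differences, in which the lines traded places, were led by *DBX1* on the H82 side. *DBX1* (chr11:20156155-20160475), a homeobox factor of the spinal cord, read 0 in each untreated H82 library and 3.92, 5.07 and 3.48 TPM in untreated H146, and with drug stood at 35.7, 192 and 180.0 TPM against 1.03, 0.617, 1.71 and 1.45 TPM (difference 5.65 ± 0.55, adjusted p = 5.6e-05). *SMOC1*, a matricellular protein, was at 6.72, 6.11 and 7.54 TPM against 60.0, 66.3 and 58.5 TPM without drug and 19.7, 54.1 and 29 TPM against 1.33, 1.44, 0.737 and 0.435 TPM with it (difference 4.06 ± 0.35, adjusted p = 3.07e-05). *AZGP1*, a secreted glycoprotein, *RBP4*, the plasma carrier of retinol, and *SERPINE2*, a protease inhibitor, completed the 5, with treated differences of 3.85, 3.30 and 2.93. *RBP4* is also in the liver list.

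On the H146 side, *RGS5*, a regulator of G protein signalling, was at 22.3, 24.1 and 23.9 TPM in untreated H82 and 1.58, 1.01 and 1.45 TPM in untreated H146, and with drug at 0.841, 0.712 and 0.785 TPM against 28.8, 33.5, 33.2 and 37.9 TPM (difference -4.26 ± 0.17, adjusted p = 1.04e-06). *CHRNB2*, a nicotinic receptor subunit, was at 28.1, 24.2 and 24.2 TPM against 7.22, 8.94 and 4.58 TPM without drug and 0.466, 4.92 and 1.49 TPM against 32.8, 13.5, 43.2 and 45 TPM with it (difference -3.50 ± 0.54, adjusted p = 0.00068). In both genes the levels with drug were lower in H82 and higher in H146 than those without it. The entries *RF02246*, *RP11-118F19.1* and *RF02250* completed the 5, with treated differences of -4.14, -3.72 and -3.46.

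**Figure D4:**
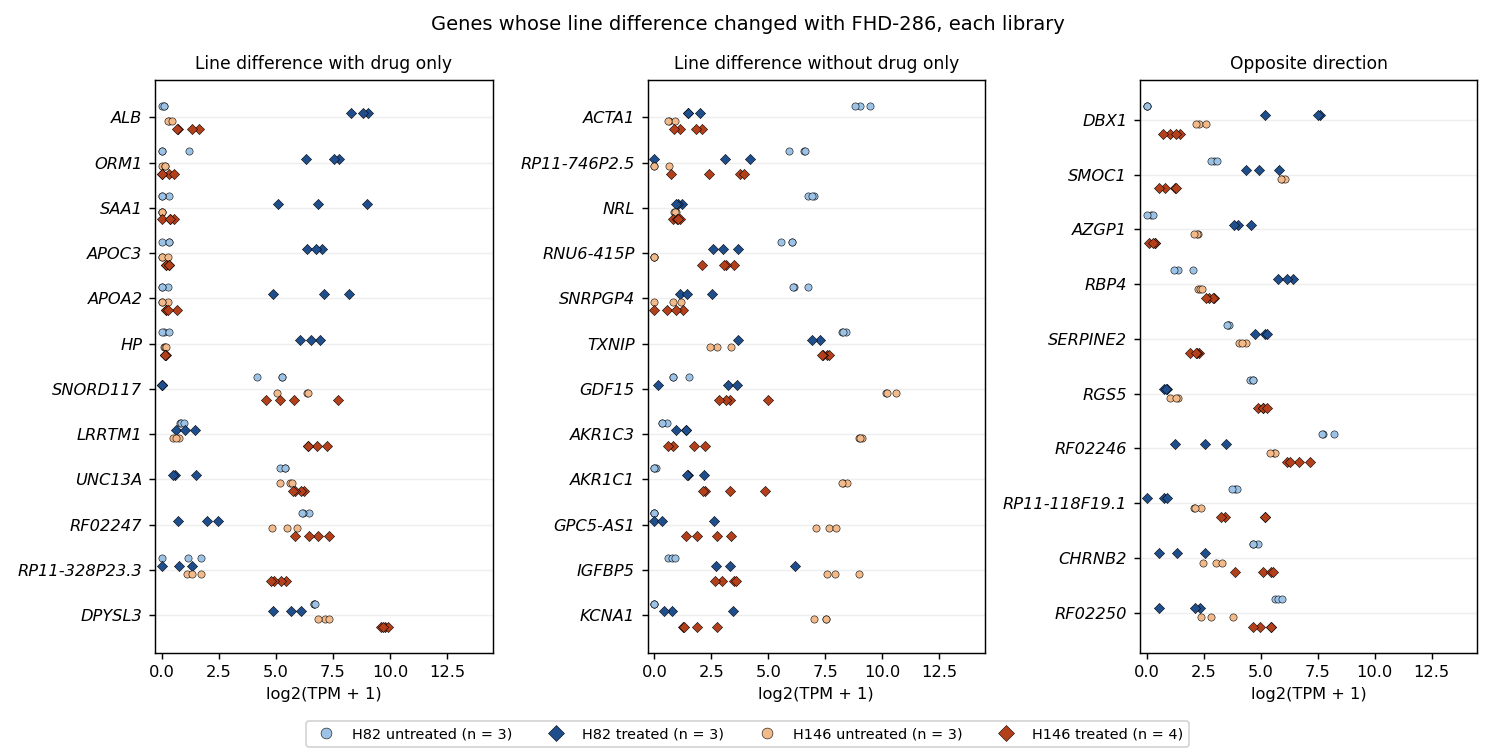
Level of the named genes whose line difference appeared (left), was lost (middle) or took the opposite direction (right), as log2(TPM + 1) in each of the 13 libraries, with circles for untreated and diamonds for treated libraries of H82 (blue) and H146 (orange). *ALB* is high in the 3 treated H82 libraries alone, *GDF15* in the 3 untreated H146 libraries alone, and in *RGS5* and *DBX1* the order of the lines differs between circles and diamonds.

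Stress response genes gave no stable line difference with drug. Of 17 genes of the integrated stress response, a list made after values had been seen, 2 were higher in treated H82 and none in treated H146 (median -0.37). The summed level was 4755, 1570 and 1212 TPM in treated H82 and 1751, 3028, 1752 and 1788 TPM in treated H146, against 6075 to 6371 TPM in untreated H146 and 1976 to 2097 TPM in untreated H82. *DDIT3* (CHOP), a transcription factor of this response, was at 432, 17.1 and 9.56 TPM in treated H82 and 42.9, 264, 30.8 and 27.6 TPM in treated H146, with library 1 of H82 and library 2 of H146 far above the rest of their groups. Without H82 library 1 the count was 1 and 9 with a median of -1.43, so the result for this list rests on that library. *DDIT4*, the gene with the largest difference on the H82 side (difference 0.89 ± 0.33, adjusted p = 0.0442), lost its call when any single library other than H82 library 3 was left out (0.57 without H82 library 2).

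Immune, fibroblast and endothelial markers were low in all treated libraries. The 12 immune markers summed to 2.90 to 7.58 TPM in treated H82 and 13.6 to 31.5 TPM in treated H146. Of 5 tested, 4 were higher in treated H146 (2 of 4 under the median of ratios and 2 of 5 under quantile normalization). The largest difference was that of *PTPRC* (CD45), at 4.91, 3.29, 6.75 and 6.57 TPM against at most 0.0782 TPM (difference -2.59 ± 0.25, adjusted p = 5.13e-05). Untreated H146 held 4.49 to 6.23 TPM of it. *CD3D*, *CD3E* and *MS4A1*, markers of T and B cells, did not reach the filter. The 12 fibroblast and endothelial markers summed to 8.35 to 35.6 TPM in treated H82 and 19.7 to 39.0 TPM in treated H146, with 2 of 6 tested higher in H82 (*LUM* at 3.14, 3.14 and 4.41 TPM, and *DCN*) and 3 in H146, led by *COL3A1* at 4.48, 3.31, 13.1 and 8.91 TPM against 0.719, 0.0611 and 1.93 TPM (difference -2.12 ± 0.48, adjusted p = 0.00506, and adjusted p = 0.0531 under quantile normalization). Their median of -0.67 turned to 0.20 under the median of ratios. The part of such transcripts in the line differences was not tested.

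**Figure D5:**
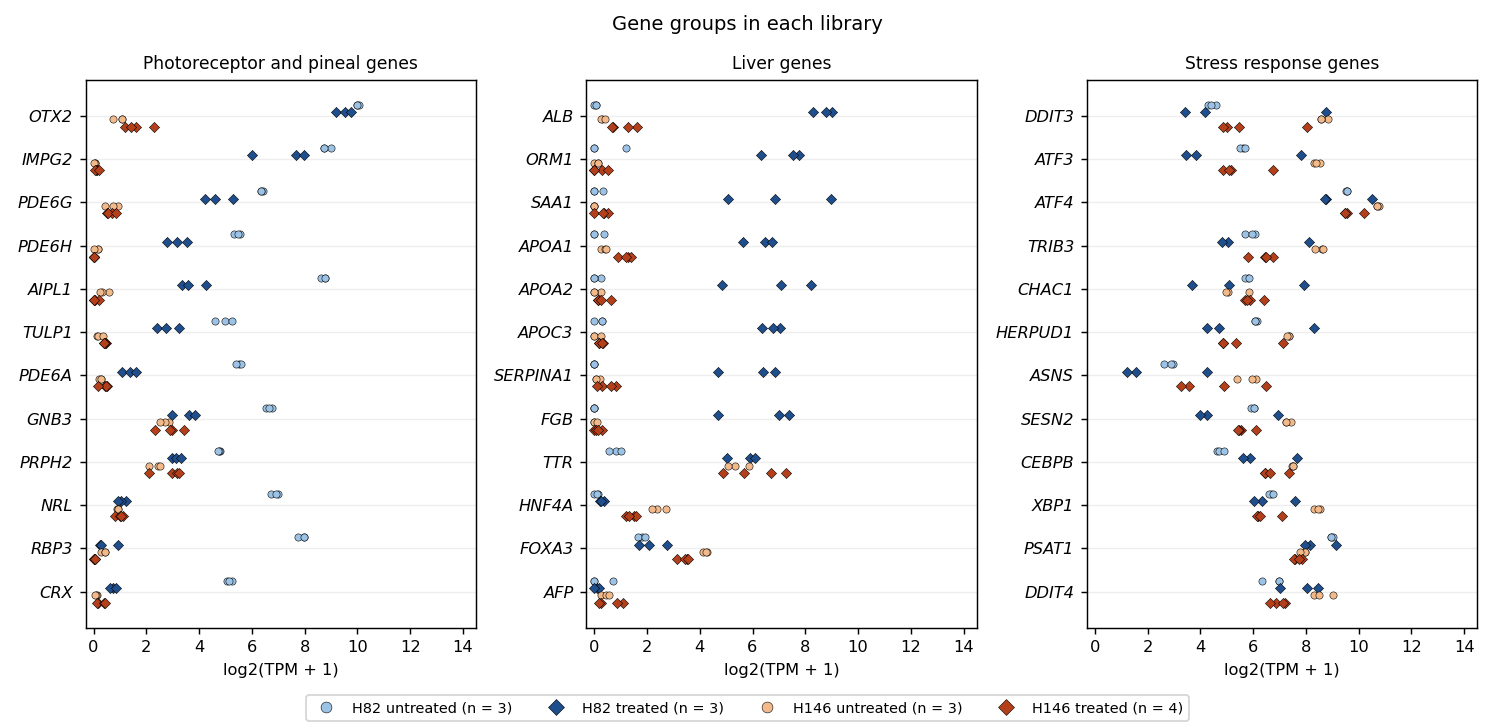
Level of 12 photoreceptor, 12 liver and 12 stress response genes as log2(TPM + 1) in each of the 13 libraries, with circles for untreated and diamonds for treated libraries of H82 (blue) and H146 (orange). Each set of 12 was picked from a longer list. The photoreceptor genes shown are highest in untreated H82, while *GNGT1*, not shown, was highest in untreated H146. Most liver genes shown are high in the 3 treated H82 libraries alone, and *DDIT3* and *ATF3* have 1 treated H82 library far above the other 2.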

How the data were processed

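RNA-seq libraries of H82 and H146, untreated (3 of each) or treated with FHD-286 (3 of H82, 4 of H146), were analysed from 2 deposited tables, 1 per line, of 56831 genes each. The authors aligned reads to hg38 with STAR and the annotation of GENCODE release 28, and deposited TPM values, which sum to 1000000 in each library. The submitters' processing notes also name Trim Galore 0.4.4 and DESeq2, without their role. DESeq2 was not run here, since TPM are not counts. Libraries were assigned to groups by their labels.

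Genes that 3 or more of the 7 treated libraries held at 1 TPM or above were tested on log2(TPM + 1) with limma 3.58.1 (R 4.3.3, moderated statistics with a trend, two-sided, Benjamini-Hochberg adjustment over 19612 genes, threshold 0.05). The treated difference was fitted on the treated libraries. The untreated difference and the change of the difference came from 1 fit of all 13 libraries. That fit was adjusted over the 24374 genes at 1 TPM or more in at least 3 of the 13. The script was checked on simulated data. Alternatives were a pseudocount of 0.1, no filter, a mean above 2 TPM, median of ratios, quantile normalization, mitochondrial genes left out of the sum, no trend, library weights, 1 fit of all libraries, a log2 difference of at least 1, the replicate block and each library left out. The tables list the same gene names in the same order, with 29 altered to dates and 4 rows sharing a name, and 28560 names had coordinates in GENCODE release 44 (1420 by an older symbol). Figures were drawn with matplotlib 3.10.9.

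The comparison, the 26 gene lists and the tests were chosen with earlier results of these data known, and 2 lists (liver, stress response) after their values were seen. Named genes were the 10 largest treated differences on each side (groups not overlapping, mean of at least 10 TPM), the 6 largest on each side that appeared and the 6 that were lost (mean of at least 5 TPM), the 5 largest opposite ones on each side, and per list the largest on each side with members described by role. Of the listed genes, 1 has no row in the tables, and some other genes are not reported here.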

Additional observations from a re-analysis of the deposited data

Results flagged for a closer look

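In 2 of 51 named genes, 1 of the 4 treated H146 libraries lay far from the other 3. A test of this kind marks about 1 in 20 groups by chance. For *AMBN* the highest library stood apart, with a gap of 0.981 of the group's range to the next. For *MAGEA8* the lowest stood apart, with a gap of 0.928 of the range.

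The line difference changed with treatment in 11007 genes, 56.1% of those tested (limma interaction of line and treatment, adjusted p under 0.05). Among them were 48 of the 53 genes named for the size or course of their difference. Genes named as appeared or lost were chosen because they passed this term, and opposite ones because their sign differed. The count of 48 is therefore no result about the named genes. The values in brackets are the treated minus the untreated difference on the log2(TPM + 1) scale, so that a positive value is a change towards H82. Among genes with the largest treated difference on the H82 side, the changes were *CCL26* (4.03), *GAGE2A* (1.36), *OTX2* (-1.18), *ALB* (7.90), *LDHB* (-0.79), *SLC38A5* (-1.31), *HRASLS* (0.75), *IMPG2* (-1.70) and *MAB21L1* (-0.55). On the H146 side they were *AMBN* (-5.36), *CD177* (-6.29), *GHRH* (1.71), *MIR4664* (-1.80), *P2RX2* (-6.43) and *MAGEA8* (-1.25).

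Among differences that appeared, those towards H82 were *ALB* (7.90), *ORM1* (6.69), *SAA1* (6.56), *APOC3* (6.38), *APOA2* (6.4) and *HP* (6.34), all 6 of them genes of plasma proteins. Those towards H146 were *SNORD117* (-4.78), *LRRTM1* (-5.92), *UNC13A* (-4.96), *RF02247* (-5.75), *RP11-328P23.3* (-3.96) and *DPYSL3* (-3.78). Among lost differences, the genes formerly higher in H82 changed by these amounts: *ACTA1* (-8.19), *RP11-746P2.5* (-6.4), *NRL* (-5.88), *RNU6-415P* (-5.73), *SNRPGP4* (-4.65) and *TXNIP* (-6.99). The genes formerly higher in H146 changed by *GDF15* (8.04), *AKR1C3* (8.50), *AKR1C1* (6.86), *GPC5-AS1* (6.22), *IGFBP5* (8.27) and *KCNA1* (7.13). Among opposite differences, those now higher in H82 were *DBX1* (8.01), *SMOC1* (7.07), *AZGP1* (5.87), *RBP4* (4.11) and *SERPINE2* (3.56), and those now higher in H146 were *RGS5* (-7.65), *RF02246* (-6.48), *RP11-118F19.1* (-5.38), *CHRNB2* (-5.28) and *RF02250* (-6.24). After scaling by the median of ratios the changes in *OTX2* (-0.50, adjusted p = 0.158), *LDHB* (-0.04, 0.893), *MAB21L1* (0.02, 0.92) and *MIR4664* (-1.39, 0.0726) did not pass. The changes in *IGFBP5* and *TXNIP* are among those in which 1 treated H82 library lies far from the other 2.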

How the results depend on the processing

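The count of genes that differed between the treated lines lay within 1.5 times its value of 12103 in all settings tried, from 8904 genes with a log2 difference of at least 1 required to 14633 with library weights. The calls themselves were not all the same: of the 12103, 74.3% were called again under the median of ratios and 67.2% under quantile normalization. No gene called in both a setting and the analysis as reported changed direction, a check that could hardly fail. A gene moved across 0 would tend to lose its call. Leaving out 1 library at a time gave 10631 to 12350 genes for the treated difference, 12384 to 12584 for the untreated one and 9751 to 11521 for the change. What moved was the split of directions: of the treated calls, 24.3% were higher in H82 with TPM as deposited, 46.8% under the median of ratios and 51.2% under quantile normalization. Of the calls on the change, 25.2% were towards H82 with TPM as deposited, 54.5% under the median of ratios and 56% under quantile normalization. The median distance between the treated lines, 0.844, was 1.23 with a pseudocount of 0.1, 0.772 under the median of ratios and 0.749 under quantile normalization, and 0.827 to 0.85 with 1 library left out. The untreated distance, 1.15, was 1.6 with the pseudocount of 0.1 and 1.07 under quantile normalization. The cause of these shifts was not tested. The opposite class, 1769 genes, held 1055 under quantile normalization and 903 with the replicate block.

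Samples of the 2 lines with the same replicate number did not deviate together in all 3 cases (r of their deviations 0.182, -0.191 and 0.165), and the number marks no shared source in the labels. With the replicate block, 10922 genes differed between the treated lines, 10498 between the untreated lines and 9795 in the change. Of 93 named genes, 86 (quantile normalization) to 93 stayed on the same side of the threshold in each setting. Lists and classes were recomputed under settings chosen after seeing the data. The tables hold no read counts, so how far depth limits the low values could not be assessed.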
